A study of Mus musculus with 8 samples.

Results

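Terminal differentiation genes of stratified epithelium were followed in 8 tumours of MOC1, a mouse carcinoma line of the oral cavity, grown as flank implants in C57BL/6 mice. The labels name the tissue as tongue carcinoma, although the design text places the implants in the flank. The members were picked by gene symbol: every gene whose symbol begins with Sprr or Lce, and 23 named genes of the cornified envelope and its processing. This gave 61 of the 55450 genes in the deposited table. All 8 mice received anti-PD-1, an antibody against an inhibitory receptor of T cells, with an antisense oligonucleotide (ASO) for 32 days. In 5 mice the ASO was against Smyd3, which encodes a lysine methyltransferase, and in 3 mice it was a control ASO. Of the 5 Smyd3 ASO tumours, responders 1 and 3 and a pair of non-responders carry a response mark in the labels, and tumour 2, called unmarked here, carries none. The non-responders bear no number in the labels and are called 1 and 2 in listed order. The response groups were defined by outcome, the line is a single tumour line, and the age and sex of the mice are not given in the sources used here.

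The cornified envelope is the protein and lipid shell that keratinocytes build beneath their membrane as they die at the surface of the epithelium. Precursor proteins are laid down and cross-linked by transglutaminases, lipids are attached to the outside, and proteases later cut the junctions so that dead cells are shed. Many of the precursor genes sit side by side in the epidermal differentiation complex, and squamous carcinomas that keratinise express part of this programme.

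The libraries held between 22103853.1 and 27258700.1 expected counts, estimated reads per gene, and the members took 0.118% to 0.497% of them. Levels are given as CPM, counts scaled to a common library size with TMM factors. Smyd3 itself stood at 8.67 and 4.38 CPM in responders 1 and 3, 4.58 CPM in unmarked tumour 2, 9.25 and 4.88 CPM in non-responders 1 and 2, and 10.7, 11.9 and 10.6 CPM in controls 1 to 3. All 5 Smyd3 ASO tumours were thus below all 3 controls, with non-responder 1 the closest to them (log2 fold change -0.80, SE 0.29, edgeR FDR 0.246). The basal keratinocyte markers were led by Krt14 and Krt5, which were abundant in every tumour. Krt15 of the same list ranged from 2.72 CPM in unmarked tumour 2 to 104 CPM in non-responder 1. The 10 basal genes summed to 21570 and 18980 CPM in responders, 29910 CPM in unmarked tumour 2, 36440 and 25010 CPM in non-responders, and 31020, 39790 and 27070 CPM in controls. In this bulk tissue, fewer cells of a type and less RNA per cell cannot be told apart. The titles give each tumour a number of its own in brackets, read here as that of the animal, though the titles do not say so. The p-values measure the spread between these tumours only.

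Of the 61 members, 56 passed the filter on low counts (10 reads of the median library, or 0.424 CPM, in at least 2 libraries). The other 5 were Flg2, Lce1m, Lce6a and Sprr4, with 6 to 15 reads over all 8 tumours, and the pseudogene Sprr2c-ps, which had none. Per kilobase of exon, the scale on which different genes can be set side by side, the highest mean levels over the 8 tumours belonged to Sprr1a at 339 CPM per kb, Dmkn at 276 CPM per kb, Krtdap at 215 CPM per kb and Calml3 at 122 CPM per kb. On the same scale Lor was at 3.40 and Flg at 0.951 CPM per kb, the Lce3 genes lay between 18.5 and 48.4 CPM per kb, and Ivl was at 12.3 CPM per kb.

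A single tumour held the highest value for most members. Non-responder 1 was the highest of the 8 tumours in 43 of the 56 tested members, against 18.5% of all 16911 tested genes. In 36 of the 56 it exceeded every other tumour more than 2-fold, against 0.97% of all tested genes. Control 2 was the lowest tumour in 40 members, against 19.8% of all tested genes. Of the remaining 13 members, 6 were highest in control 1 (Calml3, Flg, Klk5, Klk6, Klk7 and Dmkn), 4 in unmarked tumour 2 (Sprr2a1, Sprr2a2, Sprr2a3 and Sprr3) and 3 in non-responder 2 (Dsg1a, Tgm5 and Tchh). No member was highest in a responder, in control 2 or in control 3. The sum of all members was 1724 and 1563 CPM in responders, 1920 CPM in unmarked tumour 2, 5109 and 2398 CPM in non-responders, and 3794, 1228 and 2478 CPM in controls.

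**Figure D1:**
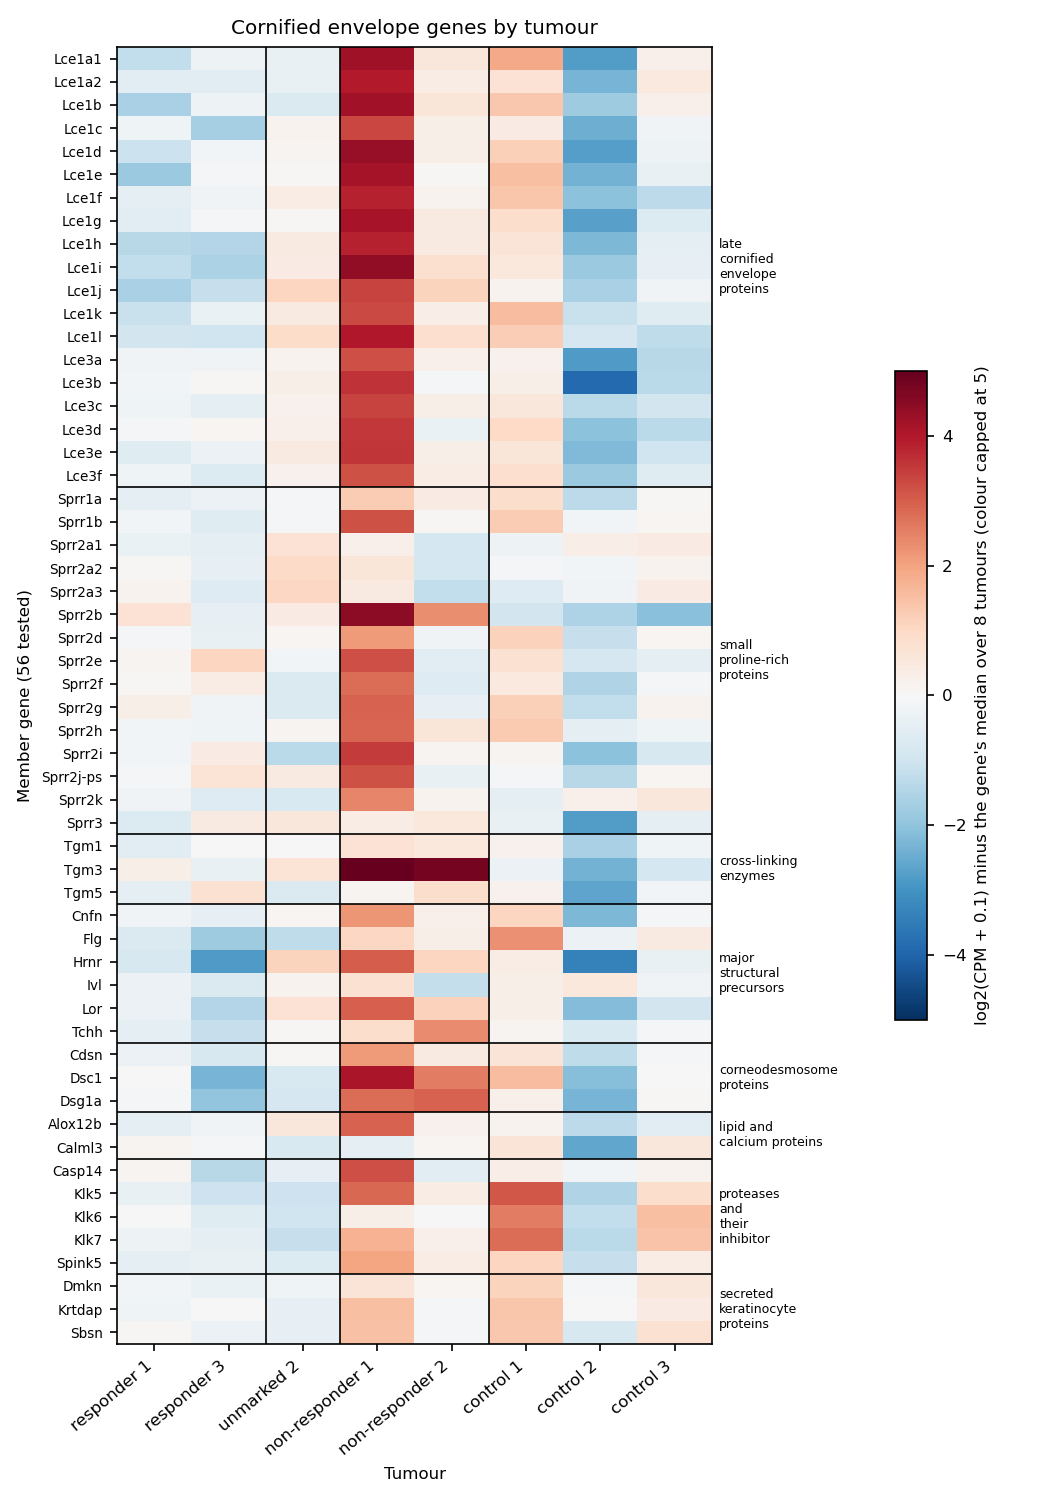
Each row is 1 of the 56 tested members and each column 1 tumour, and colour gives log2(CPM + 0.1) minus the median of that gene over the 8 tumours, capped at 5. Non-responder 1 is highest in 43 rows and control 2 lowest in 40.

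The members were also set against the basal markers. Control 2 had the highest basal sum, followed by non-responder 1 and control 1, and the responders had the lowest. In control 2 the members summed to 3.09% of the basal sum. The same share was 7.99% and 8.24% in responders, 6.42% in unmarked tumour 2, 14% and 9.59% in non-responders, and 12.2% and 9.16% in controls 1 and 3. For the Lce1 and Lce3 genes it was 1.76% in non-responder 1 and between 0.0299% (control 2) and 0.289% (control 1) in the other 7 tumours.

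Smyd3 ASO tumours were compared with control ASO tumours to ask whether the arms differed in this programme. Members lay mostly above the controls in fold change, but no member passed the test. Of the 56 tested members 46 had a log2 fold change above 0, against 51.8% of all genes, with a median of 1.35 for the members and 0.013 for all genes. At an FDR of 0.05 edgeR called 0 members, beside 0% of all genes, and 3 members had an unadjusted p below 0.05, beside 15.5% of all genes. Without non-responder 1 the members were split, with 27 of 55 above 0 against 50.4% of all genes and a median of -0.02. DESeq2 gave an adjusted p to 34 of the 56 members and called Sprr2b and Tgm3 higher, beside 6.26% of all genes with an adjusted p. The limma voom test called 0 members beside 0% of all genes, with 1 member at an unadjusted p below 0.05 beside 13.8% of all genes. Muscle markers separated the arms in their sum and fat markers overlapped between them, and edgeR called 0 genes of either list in this comparison, with 10 muscle and 5 adipocyte genes at an unadjusted p below 0.05. The 10 skeletal muscle genes summed to between 602.9 and 10980 CPM in Smyd3 ASO tumours and between 17.8 and 70.1 CPM in controls, with 1 gene at 0 in control 2, and the 6 adipocyte genes to between 30.5 and 274 CPM and between 17.0 and 42.6 CPM. Acta1 and Myh4 led the muscle list, and Fabp4 and Cfd the adipocyte list. In responders against controls edgeR called 9 of the 10 muscle, 3 of the 6 adipocyte and 1 of the 5 T cell genes higher. Their part in the member values was not tested.

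Within the Smyd3 ASO arm, the 2 responders were set against the 2 non-responders. Members lay below the non-responders almost throughout in fold change, and again edgeR called 0 members beside 0% of all genes. Of the 56 members 54 had a log2 fold change below 0, against 48.4% of all genes, with a median of -2.56 for the members and 0.013 for all genes. An unadjusted p below 0.05 was found in 28 members, against 8.49% of all genes, and all 28 lay below 0. In 38 members both responders were below both non-responders, against 19% of all genes. The size rested on non-responder 1. Without it the median was -0.66, with 43 of 55 members below 0 against 46.1% of all genes, and 40 members had both responders below non-responder 2, against 32.3%. Without non-responder 2 the median was -3.41, and 53 members had both responders below non-responder 1, against 37.7%. DESeq2 called 11 of 55 members with an adjusted p, all lower in responders, against 1.41% of all such genes. With limma voom 0 members were called, beside 0% of all genes, and 9 had an unadjusted p below 0.05, against 7.78% of all genes. Markers of other cells moved with this contrast. The 10 skeletal muscle genes summed to 2021 and 10980 CPM in responders and 602.9 and 898.7 CPM in non-responders, and the 5 T cell genes to 52.4 and 112 CPM against 24.3 and 46.3 CPM, with none of either list at 0 in these 4 tumours. Of the hair follicle list, 15 of 15 tested genes had a log2 fold change below 0, with a median of -5.58 and 9 at an unadjusted p below 0.05, and of the adipocyte list 6 of 6 lay above 0, with a median of 4.30 and 5 at an unadjusted p below 0.05. The 10 basal keratinocyte genes all had a log2 fold change below 0, with a median of -0.64. None of the genes in these 5 lists was called by edgeR. Their part in the result was not tested.

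Each response group was also set against the controls. Both comparisons use the same 3 control tumours, so their values are given side by side only. In responders 43 of the 56 members lay below 0, against 49.6% of all genes, with a median of -0.56. In non-responders 48 lay above 0, against 51.1% of all genes, with a median of 2.41. Called members numbered 0 in both, beside 1.66% of all genes for responders and 0% for non-responders. Unadjusted p below 0.05 was found in 3 members for responders, beside 16.6% of all genes, and in 28 members for non-responders, beside 9.24%. DESeq2 called 1 of 56 members for responders, Flg, lower, beside 6.82% of all genes, and 9 of 55 for non-responders, all higher, beside 2.13% of all genes with an adjusted p. With limma voom 0 members were called in both, beside 0.455% of all genes for responders and 0% for non-responders. Its unadjusted p was below 0.05 in 0 members for responders, beside 16.5% of all genes, and in 10 for non-responders, beside 7.78%. Both responders were below all controls in 6 members, against 17% of all genes: Flg, Ivl, Dmkn, Krtdap, Sprr1b and Sprr2a1. Without control 2 this count was 27, against 26%. Without control 1 the members of the responder comparison were split, with 26 of 55 below 0 against 47.8% of all genes and a median of 0.15. Both non-responders were above all controls in 14 members, against 12.2% of all genes. That count was 48 for non-responder 1 alone (against 30.4%), 15 for non-responder 2 alone (against 25.5%) and 35 without control 1 (against 19.4%). Without non-responder 1 the median was 0.17, with 33 of 55 members above 0 against 48% of all genes.

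**Figure D2:**
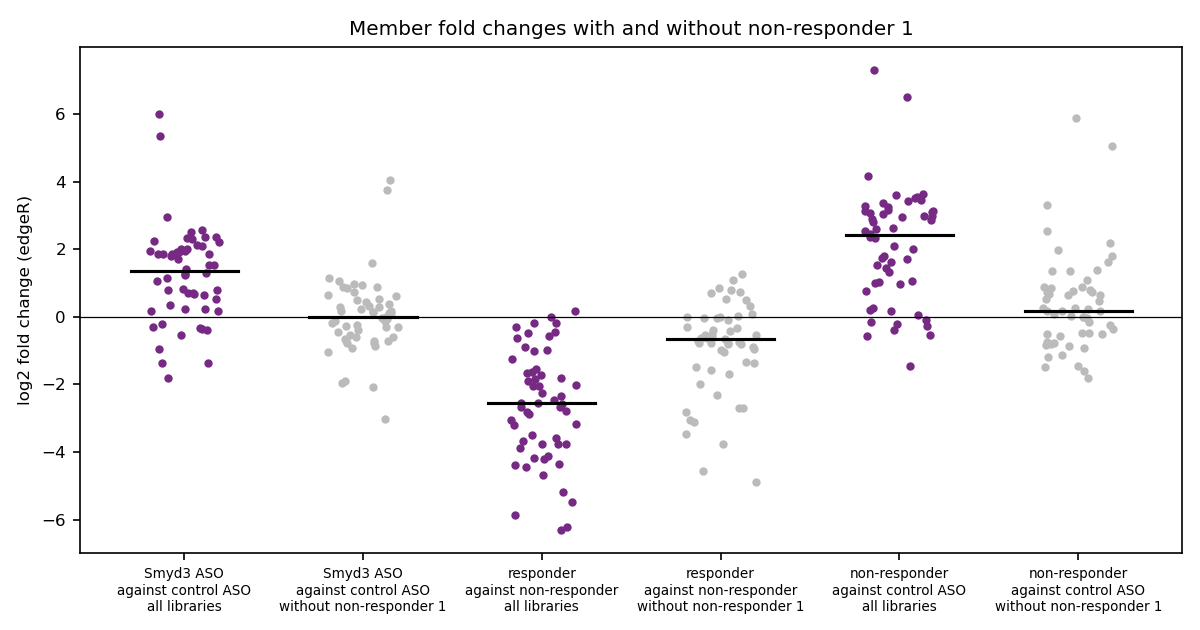
Each point is the edgeR log2 fold change of 1 member, in all libraries (purple) or without non-responder 1 (grey), and the bar is the median. The medians of 1.35, -2.56 and 2.41 become -0.02, -0.66 and 0.17 without that tumour.

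The transglutaminases, which cross-link the precursors, differed among themselves. Tgm3, which acts late in the epidermis and in the hair follicle, stood at 1.91 and 1.16 CPM in responders 1 and 3, 2.56 CPM in unmarked tumour 2, 196 and 45.5 CPM in non-responders 1 and 2, and 1.25, 0.223 and 0.799 CPM in controls 1 to 3. Both non-responders were far above every other tumour, and responder 3 lay within the control range. The log2 fold change was -6.30 (SE 0.91, edgeR FDR 0.365) in responders against non-responders, 7.30 (SE 0.81, FDR 0.196) in non-responders against controls and 6.01 (SE 2.15, FDR 0.244) in Smyd3 ASO against control ASO. Tgm3 thus had the smallest p of all members in both response contrasts that include the non-responders, and did not pass in any. Without non-responder 1 its log2 fold change was -4.89, 5.89 and 4.06 in these 3 comparisons. Tgm1, the membrane-bound enzyme that starts envelope assembly, was far more even, at 66.02 and 97.8 CPM in responders, 98.7 CPM in unmarked tumour 2, 162 and 141 CPM in non-responders, and 115, 32.1 and 85.3 CPM in controls. Both non-responders were again the highest, by less than 2-fold over control 1. Tgm5, another epidermal transglutaminase, ranged from 1.25 CPM in control 2 to 15.4 CPM in non-responder 2.

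Late cornified envelope (Lce) genes encode small cysteine-rich proteins that are added to the envelope late. All 19 tested Lce genes were highest in non-responder 1, and 16 of the 19 were lowest in control 2. The 14 Lce1 genes summed to 3.53 and 5.54 CPM in responders, 8.53 CPM in unmarked tumour 2, 149 and 11.2 CPM in non-responders, and 18.9, 0.668 and 6.31 CPM in controls. The 6 Lce3 genes, which in skin are known for induction by injury and inflammation, summed to 38.7 and 37.4 CPM in responders, 54.9 CPM in unmarked tumour 2, 492 and 52.8 CPM in non-responders, and 70.7, 11.2 and 22.5 CPM in controls. Non-responder 1 thus held 7.92 times the Lce1 sum and 6.96 times the Lce3 sum of the next highest tumour, which was control 1 for both, while non-responder 2 lay below control 1.

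Single Lce genes followed the sums. Lce3c, the Lce gene with the highest mean, stood at 11.1 and 9.61 CPM in responders, 15.2 CPM in unmarked tumour 2, 137 and 16.1 CPM in non-responders, and 19.2, 5.07 and 6.79 CPM in controls. Lce3f ranged from 2.5 CPM in control 2 to 16.8 CPM in control 1, with 86.5 CPM in non-responder 1. In responders against non-responders all 19 log2 fold changes lay below 0, with a median of -3.88, and in Smyd3 ASO against control ASO all 19 lay above 0, with a median of 2.0. Without non-responder 1, 18 Lce genes were tested, with 16 below 0 and a median of -0.92 in responders against non-responders, and 11 above 0 and a median of 0.14 for the arms. Lce3a had the smallest p of the Lce genes for the arms, at a log2 fold change of 2.29 (SE 1.10, edgeR FDR 0.362), which was 0.89 without non-responder 1 and 3.44 without control 1. Lce1i stood at 0.122 and 0.0724 CPM in responders, 0.582 CPM in unmarked tumour 2, 11.0 and 0.809 CPM in non-responders, and 0.644, 0.0446 and 0.294 CPM in controls. Both non-responders were above the rest, with non-responder 2 close to control 1 (log2 fold change -5.87, SE 1.54, FDR 0.506 in responders against non-responders, and 4.17, SE 1.15, FDR 0.389 in non-responders against controls). Without non-responder 1 these were -3.04 and 1.34, and without control 1 the comparison of non-responders with controls gave 5.07. Lce1j had 1 read in the 2 responders together and 79 in the 2 non-responders, a ratio of 0.0108 with a 95% interval of 0.000271 to 0.0621 (exact binomial, counting error only). Of the non-responder reads 66.3 came from non-responder 1 and 13 from non-responder 2. Lce genes are close copies: 24 of the 61 members, Lce genes for the most part, had a count that was not whole in at least 1 tumour, so reads were shared out between copies and single Lce values are uncertain.

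Small proline-rich (Sprr) genes encode cross-bridging proteins of the envelope, and here they split into 2 patterns. Sprr1a, the member with the highest level per kilobase and a gene also induced by stress and injury, stood at 168 and 189 CPM in responders, 220 CPM in unmarked tumour 2, 547 and 305 CPM in non-responders, and 426, 92.0 and 238 CPM in controls. Sprr1b stood at 26.6 and 19.1 CPM in responders, 28 CPM in unmarked tumour 2, 263 and 30.5 CPM in non-responders, and 69.7, 26.9 and 30.9 CPM in controls. Only non-responder 1 stood apart in Sprr1b, whereas control 1 lay close to it in Sprr1a. The 10 Sprr2 genes outside the Sprr2a group, 1 of them at 0 throughout, summed to 54.0 and 53.1 CPM in responders, 51.5 CPM in unmarked tumour 2, 369 and 58.8 CPM in non-responders, and 116, 29.0 and 53.3 CPM in controls. All 9 tested genes of that group were highest in non-responder 1, where their sum was 3.19 times that of control 1.

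The Sprr2a genes did not share this pattern. Sprr2a1, Sprr2a2 and Sprr2a3 together summed to 238 and 166 CPM in responders, 438 CPM in unmarked tumour 2, 336 and 122 CPM in non-responders, and 209, 206 and 261 CPM in controls. Unmarked tumour 2 was the highest and non-responder 2 the lowest, and the groups overlapped in every comparison of this sum. Most of the sum was assigned to Sprr2a2, at 219 and 155 CPM in responders, 403 CPM in unmarked tumour 2, 312 and 114 CPM in non-responders, and 197, 188 and 237 CPM in controls. The annotated Sprr2a1 and Sprr2a2 genes overlap and the 3 are near copies, so the division between them is uncertain and the sum is the safer value. Sprr3, best known from the oesophagus and oral mucosa, likewise did not single out non-responder 1, at 15.9 and 35.0 CPM in responders, 37.9 CPM in unmarked tumour 2, 33.5 and 37.0 CPM in non-responders, and 19.9, 3.65 and 19.1 CPM in controls. Responder 1 lay below controls 1 and 3 and the other 4 Smyd3 ASO tumours above all controls (log2 fold change 1.16, SE 0.52, edgeR FDR 0.329 for the arms).

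Sprr2b was the single member with every Smyd3 ASO tumour above every control, which 5.44% of all genes showed in that direction. It stood at 0.608 and 0.217 CPM in responders, 0.466 CPM in unmarked tumour 2, 9.25 and 2.05 CPM in non-responders, and 0.125, 0.0455 and 0 CPM in controls. The control libraries held 3, 1 and 0 reads, so the reference level is poorly known. The log2 fold change was 5.34 (SE 1.66, edgeR FDR 0.195) for the arms, -3.77 (SE 1.0, FDR 0.506) in responders against non-responders, 2.74 (SE 1.14, FDR 0.290) in responders against controls and 6.51 (SE 1.05, FDR 0.280) in non-responders against controls. Without non-responder 1 it was 3.75 for the arms, -2.31 in responders against non-responders and 5.05 in non-responders against controls. Without control 1 it was 6.54, 3.95 and 7.72 for the arms, responders against controls and non-responders against controls, and on the 6 numbered libraries the arms gave 2.81. Without control 1, 11 members separated the arms upward, against 9.57% of all genes.

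The promoters of 4 Sprr2 genes are shown because the Sprr2a genes and the other Sprr2 genes differed across the tumours, with those of Lor and Ivl for comparison. The sequences are from RefSeq (GRCm38.p6, the assembly of mm10), from 250 bases before to 50 after the annotated start, read 5′ to 3′ on the gene's strand. Capitals mark an AP-1 site (TGACTCA or TGAGTCA on either strand), an octamer (ATGCAAAT on either strand) or a TATA box (TATAAA on the gene's strand). These motifs do not overlap in the windows shown.
Sprr2d (chr3:92338890-92339189, plus strand): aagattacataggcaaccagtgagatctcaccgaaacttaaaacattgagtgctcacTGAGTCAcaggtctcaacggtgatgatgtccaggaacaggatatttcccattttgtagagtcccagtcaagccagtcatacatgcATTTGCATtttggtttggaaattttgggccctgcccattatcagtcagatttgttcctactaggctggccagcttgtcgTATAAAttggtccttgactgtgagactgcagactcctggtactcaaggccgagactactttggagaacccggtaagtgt
Sprr2h (chr3:92385435-92385734, plus strand): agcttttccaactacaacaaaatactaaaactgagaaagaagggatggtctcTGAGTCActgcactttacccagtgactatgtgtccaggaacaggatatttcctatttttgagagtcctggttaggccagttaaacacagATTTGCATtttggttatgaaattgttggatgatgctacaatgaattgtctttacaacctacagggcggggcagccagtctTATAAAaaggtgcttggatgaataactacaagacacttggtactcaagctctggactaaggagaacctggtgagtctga
Sprr2b (chr3:92316455-92316754, plus strand): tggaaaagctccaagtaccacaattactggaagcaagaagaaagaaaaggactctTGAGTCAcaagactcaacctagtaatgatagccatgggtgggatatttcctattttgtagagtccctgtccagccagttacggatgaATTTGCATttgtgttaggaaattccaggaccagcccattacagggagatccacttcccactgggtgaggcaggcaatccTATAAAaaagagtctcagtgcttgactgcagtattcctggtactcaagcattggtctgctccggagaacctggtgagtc
Sprr2a2 (chr3:92250397-92250696, plus strand): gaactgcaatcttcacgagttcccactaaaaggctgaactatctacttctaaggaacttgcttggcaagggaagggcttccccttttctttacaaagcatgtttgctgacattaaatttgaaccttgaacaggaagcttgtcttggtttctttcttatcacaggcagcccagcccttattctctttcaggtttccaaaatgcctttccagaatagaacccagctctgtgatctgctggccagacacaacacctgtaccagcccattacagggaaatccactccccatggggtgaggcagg
Lor (chr3:92083093-92083392, minus strand): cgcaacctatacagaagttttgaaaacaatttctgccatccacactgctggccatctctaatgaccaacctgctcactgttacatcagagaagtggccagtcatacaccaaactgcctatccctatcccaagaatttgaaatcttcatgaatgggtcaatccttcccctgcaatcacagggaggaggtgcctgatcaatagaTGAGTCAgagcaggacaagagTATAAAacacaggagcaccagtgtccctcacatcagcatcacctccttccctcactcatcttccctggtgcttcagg
Ivl (chr3:92573686-92573985, minus strand): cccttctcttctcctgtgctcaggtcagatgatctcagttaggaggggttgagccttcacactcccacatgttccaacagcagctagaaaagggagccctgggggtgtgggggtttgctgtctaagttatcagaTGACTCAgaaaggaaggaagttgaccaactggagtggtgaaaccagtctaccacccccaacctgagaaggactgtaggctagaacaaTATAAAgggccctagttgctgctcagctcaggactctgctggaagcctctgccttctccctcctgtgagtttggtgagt

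Of the 61 members 53 had a promoter in the RefSeq table. All 7 Sprr2 genes outside the Sprr2a group that had one (Sprr2b, Sprr2d, Sprr2e, Sprr2f, Sprr2h, Sprr2i and Sprr2k) carried the same 3 elements in the same order, an AP-1 site that began between -198 and -193, an octamer that began between -112 and -108 and a TATA box at -29. Sprr2k held an additional AP-1 site at -182. None of the 3 letter strings was found in the windows of Sprr2a1, Sprr2a2 and Sprr2a3. Of all 32851 promoters in the table, 5.2% held the AP-1 site, 1.74% the octamer and 8.32% the TATA box. Among the members the octamer was found in these 7 Sprr2 genes only. The AP-1 site was found in 13, these 7 and Dmkn, Ivl, Krtdap, Lor, Sbsn and Sprr1a. Of the latter, Dmkn was highest in control 1 and the others in non-responder 1. No Lce gene held an AP-1 site or octamer, and Tgm3 and Sprr1b held the TATA box only, although these too were highest in non-responder 1. The last 45 bases of the Sprr2a2 window matched bases -80 to -36 of the Sprr2b window at 41 positions, so the 2 annotated starts are not at corresponding bases and the Sprr2b TATA box has no counterpart inside the Sprr2a2 window. Absence of the letters therefore says only that they are not in this window. Lor had an AP-1 site at -48 and Ivl at -116, and their levels across the tumours are given next. Whether any of these motifs bears on the levels was not tested.

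The major structural precursors did not move as a block. Loricrin (Lor), the bulk protein of the epidermal envelope, stood at 2.55 and 1.09 CPM in responders, 5.28 CPM in unmarked tumour 2, 26.0 and 7.27 CPM in non-responders, and 3.99, 0.624 and 1.64 CPM in controls. Both non-responders were above all other tumours. Involucrin (Ivl), an early scaffold, stood at 18.7 and 14.1 CPM in responders, 26.2 CPM in unmarked tumour 2, 39.0 and 10.01 CPM in non-responders, and 28.2, 33.4 and 20.3 CPM in controls. Here the 2 non-responders were the highest and the lowest tumour, and control 2 was not low. Filaggrin (Flg), which bundles keratin filaments and yields natural moisturising factors, stood at 7.34 and 3.48 CPM in responders, 5.08 CPM in unmarked tumour 2, 25.1 and 15.2 CPM in non-responders, and 60.6, 9.89 and 16.6 CPM in controls. Control 1 was the highest, and both responders and the unmarked tumour were below all controls (responders against controls, log2 fold change -2.43, SE 0.83, edgeR FDR 0.219). Without control 1 it was -1.29.

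Cornifelin (Cnfn) followed the Lce genes, at 17.6 and 15.0 CPM in responders, 21.2 CPM in unmarked tumour 2, 92.2 and 23.9 CPM in non-responders, and 41.6, 4.06 and 18.5 CPM in controls. Hornerin (Hrnr), a relative of filaggrin, ranged from 0.0446 CPM in control 2 to 12.3 CPM in non-responder 1. Trichohyalin (Tchh), a protein of the inner root sheath of the hair follicle, was highest in the other non-responder, at 45.9 and 27.7 CPM in responders, 65.1 CPM in unmarked tumour 2, 114 and 316 CPM in non-responders, and 67.5, 36.5 and 58.9 CPM in controls. Both non-responders exceeded the rest (responders against non-responders, log2 fold change -2.55, SE 0.54, edgeR FDR 0.492, and non-responders against controls, 1.99, SE 0.46, FDR 0.353). Without non-responder 2 these were -1.64 and 1.07. Hair follicle markers shared with Tchh the highest value in non-responder 2, but not the order of the other tumours. Their summed CPM in unmarked tumour 2 and control 2 was above that of non-responder 1. Of the 19 genes of that list, 18 were found and 15 tested, and the sum was 49.9 and 55.9 CPM in responders, 126 CPM in unmarked tumour 2, 105 and 519 CPM in non-responders, and 50.5, 111 and 51.6 CPM in controls. Padi3 made up most of the sum in the other 7 tumours (36.8 to 108 CPM), while Krt73, an inner root sheath keratin, was at 53.8 CPM in non-responder 2 and at most 2.06 CPM elsewhere. None of the 18 genes was at 0 in non-responder 2 and 6 were in non-responder 1. Their part in the Tchh values was not tested.

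**Figure D3:**
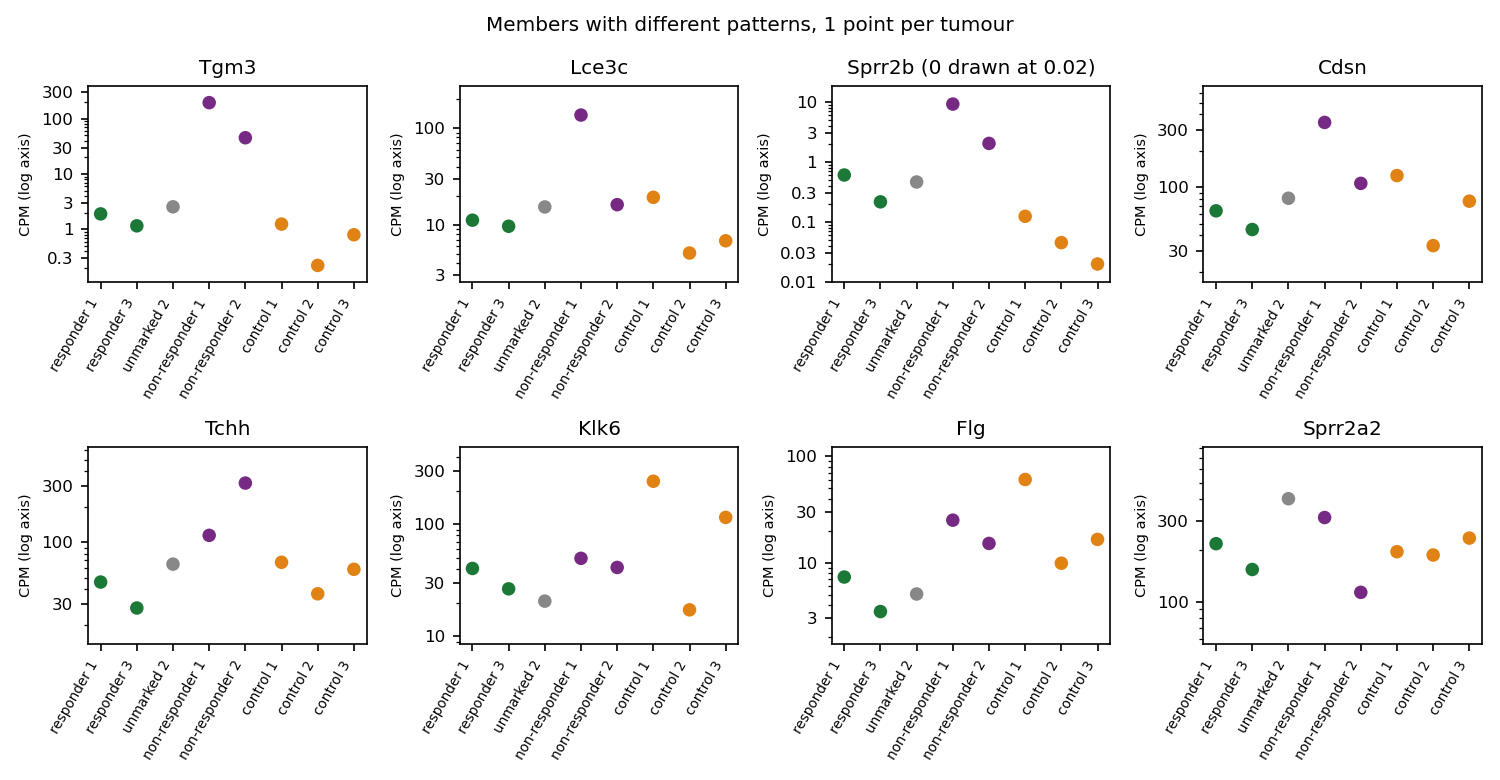
Each panel is 1 member and each point 1 tumour, with CPM on a log axis, responders in green, unmarked tumour 2 in grey, non-responders in purple and controls in orange. Tgm3 is high in both non-responders, Lce3c in non-responder 1 (137 CPM), Tchh in non-responder 2 (316 CPM), Klk6 and Flg in control 1 (243 and 60.6 CPM) and Sprr2a2 in unmarked tumour 2 (403 CPM).

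Corneodesmosome proteins, which hold corneocytes together, were high in one or both non-responders. Corneodesmosin (Cdsn) stood at 63.9 and 44.8 CPM in responders, 81.1 CPM in unmarked tumour 2, 343 and 108 CPM in non-responders, and 125, 32.9 and 76.7 CPM in controls. Desmocollin 1 (Dsc1) stood at 1.34 and 0.181 CPM in responders, 0.737 CPM in unmarked tumour 2, 24.3 and 8.32 CPM in non-responders, and 3.99, 0.223 and 1.303 CPM in controls. Desmoglein 1 alpha (Dsg1a) stood at 1.82 and 0.398 CPM in responders, 0.998 CPM in unmarked tumour 2, 13.5 and 15.0 CPM in non-responders, and 2.25, 0.296 and 1.93 CPM in controls. The cadherins Dsc1 and Dsg1a were higher in both non-responders than in all other tumours, and Cdsn in non-responder 1 alone (Dsg1a in non-responders against controls, log2 fold change 3.25, SE 0.82, edgeR FDR 0.367). Dsg1a has close copies that can share its reads. In all, 10 of the 56 members had both non-responders above the other 6 tumours, against 3.28% of all genes: Tgm1, Tgm3, Tchh, Lor, Dsc1, Dsg1a, Sprr2b, Lce1i, Lce1j and Lce3a.

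The proteases of shedding showed another order of tumours. Klk6, a kallikrein-related peptidase often produced by squamous carcinomas, stood at 40.5 and 26.6 CPM in responders, 20.7 CPM in unmarked tumour 2, 49.8 and 41.3 CPM in non-responders, and 243, 17.3 and 115 CPM in controls. Klk7, which cuts corneodesmosomes, stood at 17.0 and 14.8 CPM in responders, 9.19 CPM in unmarked tumour 2, 68.0 and 24.3 CPM in non-responders, and 143, 7.89 and 55.5 CPM in controls. Controls 1 and 3 exceeded all 5 Smyd3 ASO tumours in Klk6, and control 2 was below all of them, so the arms overlapped. The log2 fold change of Klk6 was -1.81 (SE 0.64, edgeR FDR 0.241) for the arms and -1.90 (SE 0.92, FDR 0.362) in responders against controls, and that of Klk7 in responders against controls was -2.11 (SE 1.06, FDR 0.382). Without control 1 these were -0.89 and -0.99 for Klk6 and -1.0 for Klk7. Klk5, the kallikrein that activates others, had at most 57 reads in a library and was highest in control 1 and next in non-responder 1, at 2.37 and 1.98 CPM. Spink5, the inhibitor of these kallikreins, was highest in non-responder 1, with control 1 next and control 2 lowest. It stood at 42.4 and 46.3 CPM in responders and 36.9 CPM in unmarked tumour 2. Non-responders were at 234 and 77.6 CPM and controls at 126, 27.3 and 77.6 CPM. Casp14, the caspase of cornification, was at 5.89 CPM in non-responder 1 and at most 0.706 CPM elsewhere.

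The secreted keratinocyte proteins dermokine (Dmkn), keratinocyte differentiation-associated protein (Krtdap) and suprabasin (Sbsn), neighbours on chromosome 7, varied less across the tumours than the Lce genes. Dmkn stood at 452 and 398 CPM in responders, 430 CPM in unmarked tumour 2, 768 and 537 CPM in non-responders, and 1072, 460 and 731 CPM in controls. Krtdap stood at 89.5 and 100.5 CPM in responders, 77.7 CPM in unmarked tumour 2, 289 and 95.9 CPM in non-responders, and 272, 106 and 135.8 CPM in controls. In both genes the responders were below all controls, and control 1 and non-responder 1 were the highest tumours, with control 3 close to non-responder 1 in Dmkn (Dmkn in responders against controls, log2 fold change -0.83, SE 0.35, edgeR FDR 0.299). Sbsn ranged from 55.8 CPM in control 2 to 264 CPM in non-responder 1.

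Alox12b, a lipoxygenase needed to attach lipids to the envelope, stood at 4.94 and 6.01 CPM in responders, 10.1 CPM in unmarked tumour 2, 52.7 and 7.88 CPM in non-responders, and 7.73, 2.72 and 4.58 CPM in controls. Calml3, a calmodulin-like protein of epithelium, did not share the high value of non-responder 1. It stood at 197 and 168 CPM in responders and 108 CPM in unmarked tumour 2. Non-responders were at 129 and 196 CPM and controls at 288, 29.6 and 271 CPM. Controls 1 and 3 were the highest in Calml3, control 2 was the lowest, and non-responder 1 lay below both responders.

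**Figure D4:**
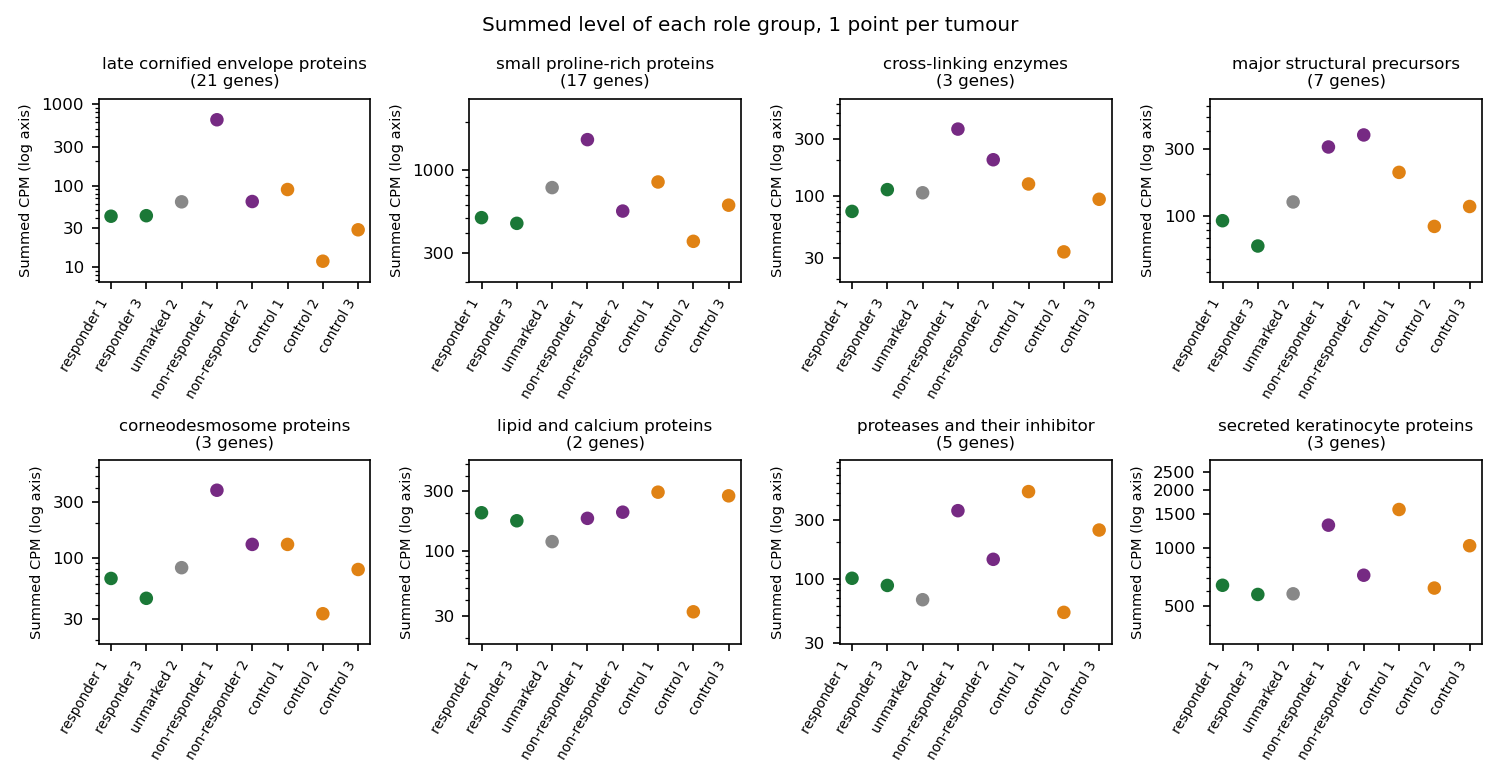
Each panel sums the CPM of 1 role group, on a log axis with 1 point per tumour, in the colours of responders (green), unmarked tumour 2 (grey), non-responders (purple) and controls (orange). Non-responder 1 is highest in the Lce, Sprr, cross-linking and corneodesmosome groups, non-responder 2 in the structural precursors, and control 1 in the protease, secreted and lipid and calcium groups. Tchh alone gives 316 of the 376 CPM of the structural precursors in non-responder 2, and 4 of the 6 tested precursors are highest in non-responder 1.

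Position in the genome was set beside these values. Of the members 44 lie within 1.37 Mb of chromosome 3 (mm10, 92080271 to 93449077), and the other 17 lie elsewhere. Within the complex the fold of non-responder 1 over the median of the other 7 tumours was 1.46 to 1.59 for the Sprr2a genes, 4.67 to 42.6 for the other tested Sprr2 genes, which follow directly, 1.68 for Sprr3, 1.92 for Ivl, 14.1 to 60.4 for the Lce1 genes, 10.5 to 14.8 for the Lce3 genes, 2.54 for Flg and 1.94 for Tchh. Genes with low and with high folds thus alternated along the cluster. Outside it the same fold was 157 for Tgm3, 18.6 for Dsc1, 8.77 for Alox12b, 4.48 for Cdsn, 1.65 for Tgm1 and 0.659 for Calml3.

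**Figure D5:**
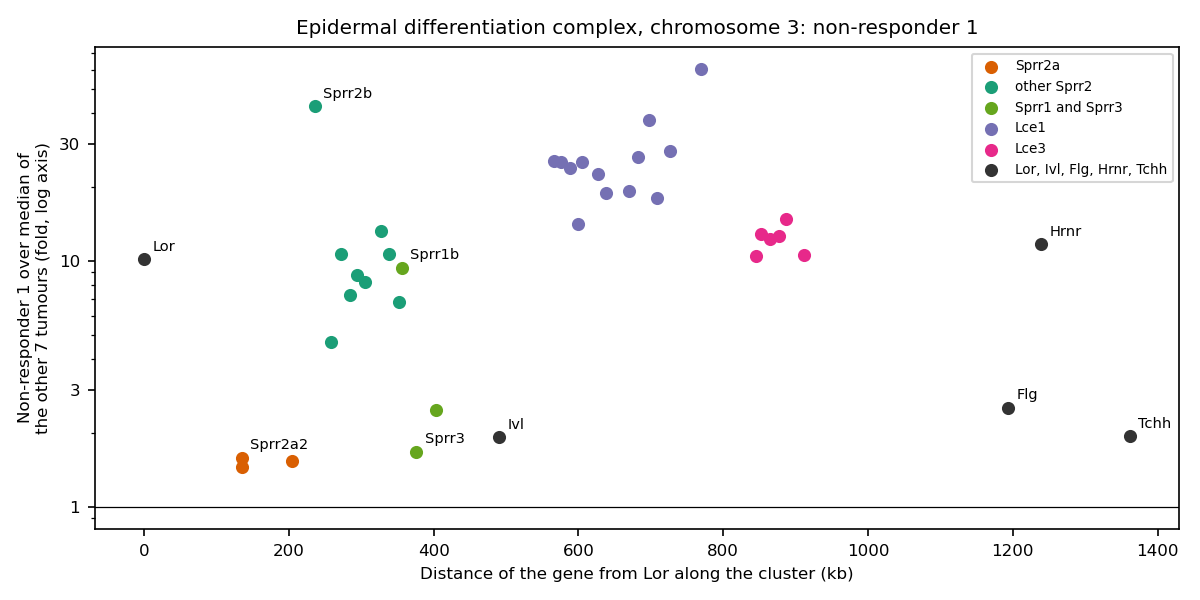
Each point is a tested member of the chromosome 3 complex, placed by its distance from Lor in kb, with the fold of non-responder 1 over the median of the other 7 tumours on a log axis. The Sprr2a genes (1.46 to 1.59) lie low before the other Sprr2 genes, and Sprr3 (1.68) and Ivl (1.92) lie low between those and the Lce1 genes (14.1 to 60.4).

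Other genes of the same process, in lists that do not overlap the members, were counted in the same fits, and edgeR called 0 of them in all 4 comparisons, in the 7 lists. In responders against non-responders the 15 tested lipid barrier genes were all under 0 (median log2 fold change -0.84), 3 of them at an unadjusted p below 0.05, and so did all 11 other shedding proteases and inhibitors (median -0.76, 0 at an unadjusted p below 0.05). Ugcg, a glucosylceramide synthase, stood at 55.8 and 68.6 CPM in responders, 55.2 CPM in unmarked tumour 2, 100 and 67.4 CPM in non-responders, and 58.9, 81.7 and 50.5 CPM in controls, so responder 3 lay above non-responder 2, and Abhd5, the next most abundant, lay between 40.6 and 65.9 CPM. Among 12 other envelope and complex genes, 11 were under 0 (median -1.14), 2 of them at an unadjusted p below 0.05, and the plakin Evpl was at 158 and 147 CPM in responders and 243 and 250 CPM in non-responders, with 343 CPM in control 1. S100a14, the most abundant of that list, lay between 312 and 586 CPM in all tumours. St14 and Blmh, the most abundant of the protease list, lay between 77.2 and 195 CPM and between 85.6 and 177 CPM. Among 17 differentiation transcription factors, 14 were under 0 (median -0.55), 3 of them at an unadjusted p below 0.05. Notch1 was highest in controls 1 and 3, at 254 and 209 CPM, and lay between 110 and 138 CPM in the other 6 tumours.

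Keratins of the suprabasal layers were low beside those of the wound response. The epidermal pair Krt1 and Krt10 did not move together: Krt1 was at 10.7 CPM in non-responder 1 and 10.3 CPM in control 1 but at most 3.28 CPM elsewhere, and Krt10 lay between 1.79 and 3.78 CPM in all tumours. The 4 mucosal suprabasal keratins all lay below 0 in responders against non-responders (median -1.62, 2 at an unadjusted p below 0.05), and Krt13, the keratin of mucosal epithelium, stood at 32.0 and 30.6 CPM in responders, 23.7 CPM in unmarked tumour 2, 90.0 and 78.6 CPM in non-responders, and 43.0, 19.7 and 25.4 CPM in controls. Both non-responders exceeded all other tumours in Krt13, and non-responder 1 alone in Krt78, at 69.3 CPM against at most 16.7 CPM elsewhere. The wound keratins were abundant throughout, with Krt6a at 3792 and 3758 CPM in responders, 5251 CPM in unmarked tumour 2, 9388 and 4662 CPM in non-responders, and 6405, 3825 and 5243 CPM in controls. Krt17 lay between 1252 CPM in responder 1 and 2523 CPM in control 1. All 4 wound keratins lay below 0 in responders against non-responders, with a median of -1.14 and 3 at an unadjusted p below 0.05.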

How the data were processed

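Polyadenylated RNA of 8 tumours was sequenced from stranded libraries, per the labels' protocols. Per the submitters' processing notes the tools were RSEM 1.3.0, STAR 2.7.0f, cutadapt 1.18 and bcl2fastq 2.17, on mm10. Settings and annotation are not given in the sources used here. The authors deposited RSEM expected counts per gene, not scaled to depth, 1 column per tumour, matched to tumours through the descriptions in the labels. Symbols came from the table, and coordinates and exon lengths from GENCODE M21.

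Expected counts were rounded and tested in R 4.3.3 with edgeR 4.0.16 (TMM, robust quasi-likelihood, two-sided, Benjamini-Hochberg FDR 0.05 over all 16911 tested genes). Genes needed 0.424 CPM in 2 libraries and 15 reads in all. The arms were fitted with treatment as the only term, and the response contrasts in a 4-group model over all 8 libraries. The SE is the log2 fold change over the square root of F. CPM values use TMM factors (0.9639 to 1.04). Alternatives used DESeq2 1.42.0, limma 3.58.1, other size factors, no filter, summed paralogs and each library left out. The code was first tested on simulated data.

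Named members are the 5 with the smallest p per comparison and the 2 with the highest mean CPM per role group, other members being given by range or chosen after their values were seen. From other lists the 2 tested genes with the highest mean were named, except 1 gene that is not reported here. Members and lists were chosen with earlier results of these data known.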

Additional observations from a re-analysis of the deposited data

Results flagged for a closer look

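In the 5 Smyd3 ASO tumours, 14 values among the 24 members chosen for naming lay far from the other 4 of their gene by Dixon's gap test. The nominal rate of that test is about 1 group in 20. On these CPM values 8.63% of all 16911 tested genes had a high outlier, and 260 genes a low one. Part of the 24 were named for a small p in comparisons that include non-responder 1, so these 14 values are no independent support. In 13 of them the tumour was non-responder 1: Cdsn (343 CPM), Spink5 (234 CPM), Krtdap (289 CPM), Tgm3 (196 CPM), Lce3c (137 CPM), Cnfn (92.2 CPM), Lce3f (86.5 CPM), Klk7 (68.0 CPM), Alox12b (52.7 CPM), Lce3a (50.4 CPM), Lce1i (11.0 CPM), Sprr2b (9.25 CPM) and Lce1j (3.05 CPM). The remaining one was a low value, Sprr3 in responder 1 (15.9 CPM). Over all tested members, 41 of 56 (73.2%) had non-responder 1 as a high outlier, against 3.83% of all tested genes. Smyd3 in that tumour was at 9.25 CPM, the highest of its arm, and its basal keratinocyte sum of 36440 CPM was second to control 2. Sebaceous markers were tested in 3 of 7 genes, with Krt79 at 115 to 383 CPM in Smyd3 ASO tumours and 39.2 to 327 CPM in controls, and the 5 melanocyte genes summed to at most 1.31 CPM. Whether any of these bears on the member values was not tested.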

How the results depend on the processing

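Called members numbered 0 in all 4 comparisons by edgeR with TMM, with other size factors, with summed paralogs, with each library left out, and by limma voom. DESeq2 called 2 members for the arms (6.26% of all genes with an adjusted p) and 11 for responders against non-responders (1.41%). It called 1 for responders against controls (6.82%) and 9 for non-responders against controls (2.13%). In that last comparison edgeR without a filter called 1 of 60 members, Sprr2b. The share of all genes called in that unfiltered fit is not given here, so this call has no background beside it. With Sprr2, Lce1 and Lce3 each summed to 1 feature, 28 features were tested, with 19 above 0 for the arms, 27 below 0 for responders against non-responders, 22 below 0 for responders against controls and 22 above 0 for non-responders against controls. The counts by direction and without overlap under left-out libraries were added after the data were seen. Leaving out 1 library gave 27 to 49 members above 0 for the arms, 43 to 55 below 0 for responders against non-responders, 26 to 47 below 0 for responders against controls and 33 to 52 above 0 for non-responders against controls. Members without overlap numbered 1 to 11 of 56 for the arms, beside 5.44% to 10.1% of all genes. For responders against non-responders they numbered 38 to 53, beside 19% to 37.7%. The count was 6 to 27 for responders against controls, beside 17% to 29.8%, and 14 to 48 for non-responders against controls, beside 12.2% to 30.4%.

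The replicate block could be fitted to the 6 numbered libraries only, where 24 of 54 members lay above 0 and 0 were called, against 20 without the block. Deviations of same-numbered tumours correlated at -0.012, 0 and 0.062, and those of differently numbered tumours lay between -0.15 and 0.125. With 3 tumours per arm these values cannot tell whether the numbers pair the tumours. The 20 log2 fold changes of the members with the smallest p kept their sign in the alternative fits, 249 on the same side of the threshold and 13 now past it. These 20 were chosen for a small p in the same data, so their kept sign is no independent support. The 13 came from DESeq2 and, for Sprr2b in non-responders against controls, from edgeR without a filter. Over the 24 named members and 4 comparisons, 29 of 96 values changed sign under at least 1 alternative, 11 of them without control 1 and 8 without non-responder 1. Without non-responder 1 the arms gave -0.07 for Cdsn (0.71 with it), -0.14 for Cnfn (0.66) and -0.60 for Spink5 (0.18), and the cause was not tested. Low counts limit Sprr2b, Lce1j and Klk5.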
